A study of Mus musculus with 6 samples.

Results

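Nos2, Acod1, Arg1, Arg2, Ass1, Slc7a2, Slc7a11, Ptgs2, Sod2 and Gch1 are genes of nitric oxide, arginine and itaconate metabolism that activated macrophages use. The 10 genes were chosen by name with earlier results of these samples known, and the rows of the count table whose Ensembl identifiers carry these names in GENCODE mouse release 21 were read, 10 of 46983 genes. Their levels and their differences between the groups are therefore given as a description. The study asked what the BAF chromatin remodeling complex, which is assembled on its core subunits BAF155 and BAF170, does for transcription in neural crest cells (NCCs). It counted poly(A) RNA of GFP+ cells that had been sorted from mouse embryos at E11.25. The 3 control samples were heterozygous for the floxed alleles of both genes (flox/+), and the 3 BAF155/170-deficient samples were homozygous for both (flox/flox). All 6 samples carried Wnt1 Cre/+ and the reporter Rosa26 mTmG/+, which turns from membrane Tomato to membrane GFP where Cre has acted, and the controls too could lose 1 copy of each BAF gene in Cre-expressing cells. Wnt1-driven Cre also acts in the dorsal neural tube, so GFP is not particular to NCCs. The methods name 3 embryos of each genotype, the same number as the samples, and the labels do not tie a sample to an embryo, so the p-values measure the spread between these samples.

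Inducible nitric oxide synthase, the product of Nos2, makes nitric oxide and citrulline from arginine and needs tetrahydrobiopterin, whose synthesis starts with the GTP cyclohydrolase Gch1. Slc7a2 carries arginine into the cell, Ass1 starts the return of citrulline to arginine, and the arginases Arg1 (cytosolic) and Arg2 (mitochondrial) split arginine into ornithine and urea, so that they use the same substrate as Nos2. Acod1 makes itaconate from the Krebs cycle intermediate cis-aconitate, and itaconate blocks succinate dehydrogenase. In mouse macrophages, bacterial products and interferon gamma induce Nos2 and Acod1 together with the prostaglandin synthase Ptgs2, the mitochondrial superoxide dismutase Sod2 and the cystine transporter Slc7a11, whereas Arg1 is the textbook gene of alternative activation by interleukin 4.

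The labelled cell type was checked against its markers before the genes were read. Levels are given as CPM, counts scaled to the library total after TMM normalization, which also corrects for shifts shared by most genes. The 20 neural crest and mesenchymal markers summed to between 145 and 264 CPM in the controls and between 89.9 and 120 CPM in the deficient libraries. Sox10, the defining factor of crest, had 4.78 ± 2.80 CPM (SD, n = 3) and 1.18 ± 0.316 CPM (SD, n = 3). The 12 macrophage markers summed to between 12254 and 14214 CPM in the controls and between 14331 and 15653 CPM in the deficient libraries, so that macrophage markers exceeded the markers of the labelled cell type in every library. Monocyte markers summed to between 91.6 and 138 CPM, of which Fn1, which mesenchymal cells also make, held 63.8 ± 18.4 and 34.5 ± 5.67 CPM (SD, n = 3 each) in the control and deficient group, while the other 4 monocyte markers had log2 fold changes of 0.04 to 0.34. Erythroid markers summed to between 9.17 and 60.3 CPM and epithelial markers to at most 3.08 CPM. Endothelial markers summed to between 174 and 212 CPM, but Kdr made up most of this sum, while Cdh5 and Tek stood below 2 CPM. The neutrophil sum of 291 to 380 CPM was in large part Csf3r, with Mpo, Elane and Ly6g below 0.5 CPM in every library. The neutrophil markers S100a8 (9.03 CPM in the controls, log2 fold change 0.51, adjusted p = 0.105, edgeR) and S100a9 (5.84 CPM, 0.53, adjusted p = 0.109, edgeR) were higher in every deficient library than in every control library, and Ngp had 3.97 and 3.29 CPM. For each of these sums the exact permutation test over the 6 libraries gave 0.1 (two-sided), the smallest p that 3 against 3 samples allow. In bulk samples a smaller number of cells of a type and less RNA per cell cannot be told apart.

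Total counts ran from 8191219 to 11661941 in the controls and from 12633319 to 19808620 in the deficient libraries, so the deficient libraries were the deeper ones without overlap. Of the targeted genes, Smarcc1 (BAF155) measured 42.1, 55.0 and 35.1 CPM in replicates 1 to 3 of the controls, and 29.4, 26.4 and 24.5 CPM in those of the deficient group, a log2 fold change of −0.71 (standard error 0.156, adjusted p = 0.0676, edgeR). Smarcc2 (BAF170) had 91.8, 89.9 and 92.9 CPM against 85.9, 82.3 and 86.8 CPM, a log2 fold change of −0.11 (standard error 0.0577, adjusted p = 0.251, edgeR). Counts over a whole gene do not separate the floxed exons from the rest.

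The members lie on 9 different chromosomes, with Acod1 and Gch1 on opposite strands of chromosome 14, and all are protein-coding. RefSeq promoters of GRCm38.p6 were at hand for 6 of the 10 genes. The 250 bases before the RefSeq start are printed for 3 that stand for different roles, since the levels of these genes other than Ass1 moved together across the libraries. Capitals mark the letters matched by the motifs searched, which were read on both strands. In the Ptgs2 window (chr1:150099781-150100030, plus strand) they are a GC box (GGGCGG) and a C/EBP motif (TTGCNNAA). In the Slc7a11 window (chr3:50443614-50443863, minus strand) they are a GAS motif (TTCNNNGAA), a C/EBP motif and a pair of amino acid response elements (TGATGNAA) in opposite orientation. In the Gch1 window (chr14:47189414-47189663, minus strand) they include the letters of a TATA box (TATAAA) on the opposite strand, 188 to 183 bases before the start. The others are a pair of GC boxes, the core TGACG of the cAMP response element and, at the 3′ end, a kappaB motif. The kappaB motif allows several bases at some positions and is given by name. The searches also covered AP-1 (TGANTCA), the interferon-stimulated response element and the antioxidant response element (TGACNNNGC), whose letters were in none of the 6 windows.
Ptgs2: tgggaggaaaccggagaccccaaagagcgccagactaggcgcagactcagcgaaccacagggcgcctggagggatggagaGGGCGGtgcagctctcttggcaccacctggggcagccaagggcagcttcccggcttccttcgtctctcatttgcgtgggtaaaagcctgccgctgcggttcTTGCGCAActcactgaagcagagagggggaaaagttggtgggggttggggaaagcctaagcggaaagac
Slc7a11: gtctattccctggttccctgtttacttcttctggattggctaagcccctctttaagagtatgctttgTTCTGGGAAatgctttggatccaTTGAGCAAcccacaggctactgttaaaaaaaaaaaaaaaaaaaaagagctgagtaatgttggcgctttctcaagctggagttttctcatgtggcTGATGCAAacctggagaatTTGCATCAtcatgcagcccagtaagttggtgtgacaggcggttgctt
Gch1: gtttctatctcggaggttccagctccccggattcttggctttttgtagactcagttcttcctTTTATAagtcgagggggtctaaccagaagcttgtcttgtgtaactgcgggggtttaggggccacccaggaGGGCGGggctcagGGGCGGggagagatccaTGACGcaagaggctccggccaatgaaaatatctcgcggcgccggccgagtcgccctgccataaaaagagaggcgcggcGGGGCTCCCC

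Across 32851 promoter windows of the same length, 7.25% held the kappaB motif, 9.56% the C/EBP motif, 7.02% the GAS motif, 3.45% the amino acid response element, 17.8% the TGACG core and 32.7% a GC box. The motifs without a match in the 6 windows were held by 6.75% (AP-1), 2.98% (interferon-stimulated) and 10.2% (antioxidant) of windows. Of the other windows, Sod2 held a kappaB motif between 83 and 74 bases before the start, a GAS motif and 4 GC boxes. Acod1 held a TATA box between 28 and 23 bases before the start, a motif that 12.4% of windows held. Ass1 held a GC box. Among the 6 windows the kappaB motif was thus in Sod2 and Gch1, and the amino acid response element in Slc7a11. These are matches of letters, and no binding was measured.

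The inducible nitric oxide synthase was among the genes with most counts in the sorted cells. Nos2 (ENSMUSG00000020826.6, chr11:78920787-78960254) measured 4144, 4051 and 4607 CPM in replicates 1 to 3 of the controls, and 4841, 4958 and 5216 CPM in those of the deficient group, and ranked between 13 and 16 of all genes in the 6 libraries. Every deficient library was above every control library, with control replicate 3 the nearest to them. The means were 4267 ± 298 and 5005 ± 192 CPM (SD, n = 3 each), a log2 fold change of 0.23 (standard error 0.0775, adjusted p = 0.101, edgeR). Nos1 and Nos3, the neuronal and endothelial synthases, stood at 0.403 and 0.287 CPM in the controls, and per kilobase of exon at 0.0362 and 0.0694 CPM against 967 CPM for Nos2. Gch1 (ENSMUSG00000037580.9, chr14:47153895-47189413) had 143, 127 and 154 CPM against 158, 160.1 and 169.6 CPM, again without overlap between the groups. The fitted log2 fold change came to 0.20 (standard error 0.0727, adjusted p = 0.112, edgeR), close to that of Nos2. Per kilobase of exon, the ratio of Nos2 to Gch1 stayed between 41.1 and 45.3 in the 6 libraries. Gchfr, the feedback regulator of Gch1, stood at 0.278 CPM in the controls and 0.103 CPM in the deficient libraries.

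Among the genes that supply arginine, the transporter Slc7a2 had 48.5 CPM per kilobase of exon in the controls and the recycling enzyme Ass1 11.2 CPM. Slc7a2 (ENSMUSG00000031596.15, chr8:40862396-40922308) measured 444.8, 418.7 and 466.8 CPM in the control replicates, against 495.2, 508 and 525.6 CPM in the deficient replicates. The groups did not overlap, and the log2 fold change of 0.20 (standard error 0.0618, adjusted p = 0.0913, edgeR) passed an adjusted p of 0.1. Slc7a1, the arginine transporter of most tissues, had 13.3 ± 1.16 and 11.8 ± 1.60 CPM (SD, n = 3 each), which is 1.15 CPM per kilobase in the controls. Ass1 (ENSMUSG00000076441.9, chr2:31470207-31520672) had 27.7, 22.6 and 31.1 CPM against 35.6, 27.2 and 35.2 CPM, and its groups overlapped because deficient replicate 2 lay below control replicates 1 and 3. The fitted log2 fold change came to 0.26 (standard error 0.136, adjusted p = 0.25, edgeR). Asl, which completes the recycling of citrulline, had 22.2 ± 4.32 and 24.6 ± 1.26 CPM (SD, n = 3 each). Per kilobase of exon Nos2 exceeded Ass1 by a factor of 74.3 to 99.8, a range wider than that of Nos2 to Gch1.

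The arginases stood far below Nos2. Arg1 (ENSMUSG00000019987.8, chr10:24915221-24927484) measured 29, 16 and 25 counts in the control replicates, against 60, 58 and 50 counts in the deficient replicates, which are 3.08, 2.14 and 2.05 CPM against 4.70, 3.54 and 2.37 CPM. The groups overlapped, since deficient replicate 3 lay below control replicate 1. Exact Poisson 95% intervals, which cover counting error only, were also compared. That of deficient replicate 1 (3.59 to 6.05 CPM) lay above those of control replicates 2 (1.22 to 3.48 CPM) and 3 (1.33 to 3.03 CPM). It overlapped that of control replicate 1 (2.07 to 4.43 CPM). The intervals of deficient replicates 2 (2.69 to 4.58 CPM) and 3 (1.76 to 3.13 CPM) overlapped those of all controls. Arg1 had the largest fitted difference of the 10 genes and also the largest error, a log2 fold change of 0.53 (standard error 0.322, adjusted p = 0.312, edgeR), and with each library left out in turn it ran from 0.28 without deficient replicate 1 to 0.76 without deficient replicate 3. Arg2 (ENSMUSG00000021125.6, chr12:79130777-79156301) measured 23.1, 23.0 and 26.4 CPM in the control replicates, against 26.0, 27.6 and 30.5 CPM in the deficient replicates, with deficient replicate 1 just below control replicate 3. The fitted log2 fold change came to 0.21 (standard error 0.0967, adjusted p = 0.181, edgeR). In GENCODE release 21, 285 exon bases of Arg2 are shared with Vti1b on the opposite strand, and the strand setting of the counting was not given in the sources used here, so part of the Arg2 count is uncertain. Per kilobase of exon Arg2 exceeded Arg1 by a factor of 8.63 to 20.1, and Nos2 exceeded Arg1 by a factor of 520.2 to 1134. The lowest of each of these ratios was that of deficient replicate 1 and the highest that of control replicate 3, and the ratios of the groups overlapped.

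Acod1 (ENSMUSG00000022126.6, chr14:103046977-103056573), the itaconate synthase, measured 2894, 2759 and 3165 CPM in the control replicates, against 3256, 3445 and 3569 CPM in the deficient replicates, and ranked between 26 and 31 of all genes. Every deficient library lay above every control library, with a gap of less than 100 CPM between control replicate 3 and deficient replicate 1. The means were 2939 ± 207 and 3423 ± 157 CPM (SD, n = 3 each), a log2 fold change of 0.22 (standard error 0.0765, adjusted p = 0.106, edgeR). Per kilobase of exon, which is the scale for levels between genes, Acod1 was the highest of the 10 genes, and the ratio of Nos2 to Acod1 lay between 0.851 and 0.884 in the 6 libraries.

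Ptgs2, Sod2 and Slc7a11 serve prostaglandin synthesis, superoxide removal and cystine uptake. Ptgs2 (ENSMUSG00000032487.8, chr1:150100031-150108227) measured 1176, 1145 and 1285 CPM in the control replicates, against 1347, 1420 and 1478 CPM in the deficient replicates, which did not overlap. Its log2 fold change of 0.24 (standard error 0.0692, adjusted p = 0.0856, edgeR) gave the smallest adjusted p of the 10 genes. Ptgs1, the constitutive synthase, had 2.04 ± 0.578 and 2.22 ± 0.149 CPM (SD, n = 3 each). Sod2 (ENSMUSG00000006818.4, chr17:13006846-13040063) had 1016, 996 and 1128 CPM against 1151, 1208 and 1227 CPM, without overlap and with a log2 fold change of 0.19 (standard error 0.0678, adjusted p = 0.109, edgeR). The cytosolic Sod1 had 65.6 ± 4.18 and 70.4 ± 6.48 CPM (SD, n = 3 each). Slc7a11 (ENSMUSG00000027737.10, chr3:49892526-50443614) had 20.4, 21.0 and 21.5 CPM against 23.0, 23.2 and 23.8 CPM, a narrow spread within each group and no overlap between them. Over the 6 libraries Slc7a11 varied by 6.12% in CPM, where counting alone gives 6.25%, so the narrow spread and the separation say little. Its log2 fold change was the smallest of the 10, 0.15 (standard error 0.0867, adjusted p = 0.276, edgeR). Slc3a2, the heavy chain that pairs with Slc7a11 and with other light chains, had 456 ± 29.9 and 520.3 ± 29.7 CPM (SD, n = 3 each), and per kilobase of exon it had 129 CPM in the controls against 1.51 CPM for Slc7a11.

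**Figure D1:**
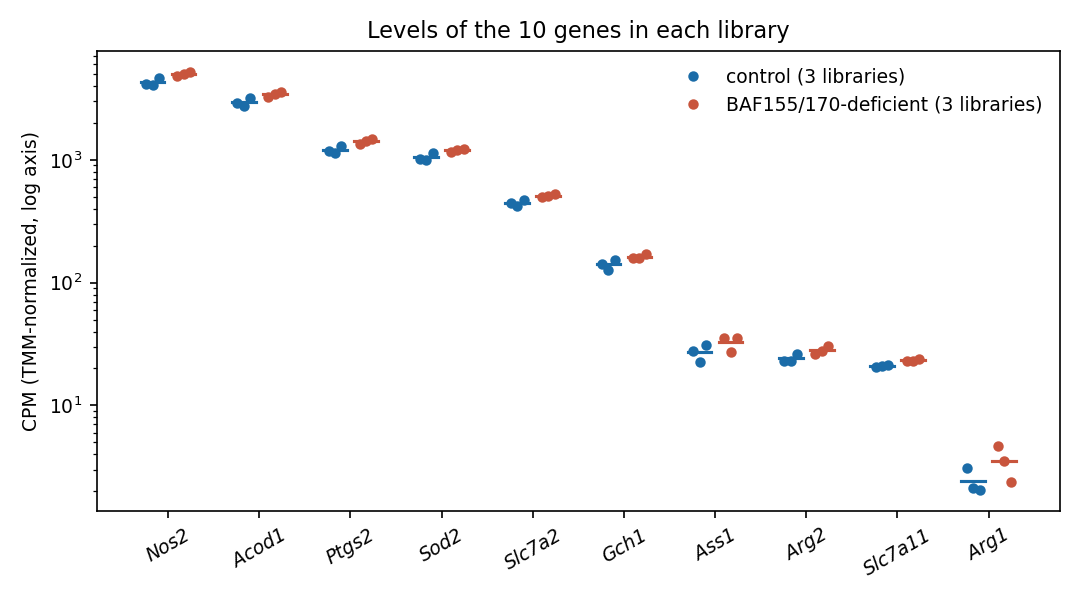
CPM of each of the 10 genes (log axis) in the 3 control libraries (blue) and the 3 BAF155/170-deficient libraries (red), with 1 point per library and a bar at each group mean. Means span from 5005 CPM for Nos2 in the deficient libraries to 2.43 CPM for Arg1 in the controls, and the distance between genes is far larger than that between the groups.

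Ordered by level per kilobase of exon in the controls, the genes ran from Acod1 (1121 CPM per kb) and Nos2 (967) through Ptgs2 (262), Sod2 (105), Slc7a2 (48.5), Gch1 (22.6), Arg2 (16.9) and Ass1 (11.2) to Slc7a11 (1.51) and Arg1 (1.09). Over the 6 libraries the ranges of Acod1 (1052 to 1361) and Nos2 (918 to 1182) overlapped, although Acod1 was the higher of the pair within each library, by factors of 1.13 to 1.18. The ranges of Gch1 (20.3 to 27.1) and Arg2 (16.1 to 21.4) also overlapped, but within each library Gch1 was the higher by factors of 1.26 to 1.42. Slc7a11 (1.47 to 1.71) lay within the range of Arg1 (0.921 to 2.11) and was the higher in 5 of 6 libraries, so this pair of neighbours did not differ beyond its spread. Exon lengths are those of all isoforms joined and may exceed the length of the transcript in use.

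**Figure D2:**
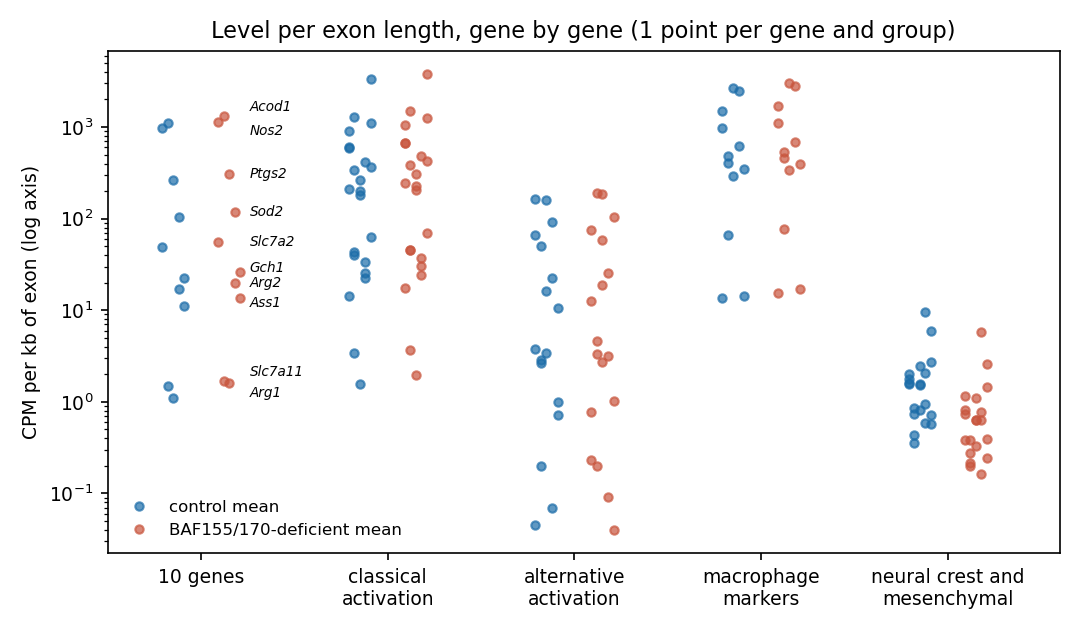
Mean CPM per kilobase of exon (log axis) of each gene in the controls (blue) and the BAF155/170-deficient libraries (red), with 1 point per gene and group, for the 10 genes, the classical and alternative activation products, the macrophage markers and the neural crest and mesenchymal markers. Genes at 0 are not drawn. Acod1 (1121 CPM per kb in the controls) and Nos2 (967) lie among the macrophage markers, and Arg1 (1.09) lies among the crest markers.

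By edgeR none of the 10 genes was called, where a call needs an adjusted p up to 0.1, a log2 fold change of 0.58 or more in either direction and 2 CPM or more on average. An unadjusted p under 0.05 was reached by 7 of the 10 with edgeR and by 6 each with DESeq2 and limma-voom, which called none either. Of all genes tested, 27.3% reached it with edgeR, 23.4% with DESeq2 and 27.9% with limma-voom. Over all 13961 genes tested, 4.88% were called lower and 0.0573% higher. By the adjusted p alone 2 of the 10 genes passed, Ptgs2 and Slc7a2, both higher in the deficient libraries, beside 4.18% of all genes higher and 7.75% lower. All 10 genes passed the filter on low counts, and all 10 log2 fold changes were positive, from 0.15 to 0.53 with a median of 0.22, against a median of −0.02 over all genes. In 7 of the 10 genes every deficient library was above every control library, beside 15.0% of all genes in this direction and 16.4% in the other. These counts rest on the contrast with which the genes were proposed and are not evidence about them. Leaving out control replicate 1 or 2, or deficient replicate 2 or 3, lowered the count of 2 to 0, and leaving out control replicate 3 raised it to 7. The share of all genes that passed moved likewise, from 11.9% to between 0.00% and 2.89% in the former fits and to 26.0% in the latter.

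**Figure D3:**
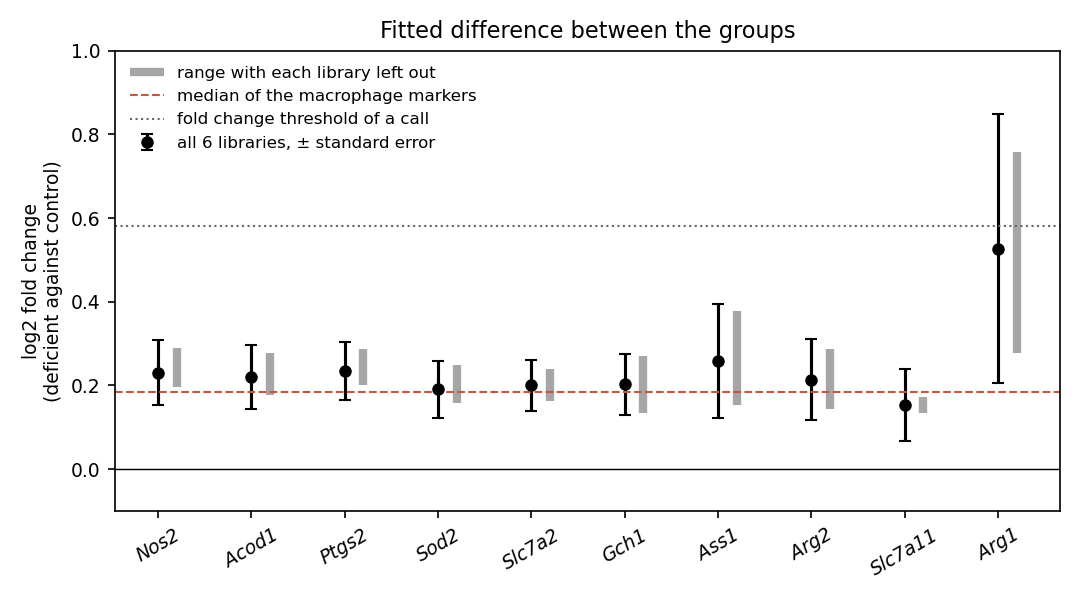
Log2 fold change of each of the 10 genes, BAF155/170-deficient against control, with its standard error (black), and the range of the log2 fold change when each library was left out in turn (grey). The values lie between 0.15 and 0.53, below the call threshold of 0.58 (dotted). Those of the genes other than Arg1 lie close to 0.19, the median of the 12 macrophage markers (dashed). Arg1 lies higher, at 0.53, and has the widest range (0.28 to 0.76), which reaches above the threshold.

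The fitted differences of the macrophage markers were of a size like those of the 10 genes other than Arg1. All 12 markers had positive log2 fold changes, from 0.15 to 0.25 with a median of 0.19, and Adgre1 alone passed an adjusted p of 0.1 (0.0924, edgeR). The 10 genes held from 0.873% of all counts in control replicate 2 to 1.31% in deficient replicate 3, and the 12 markers from 1.12% to 1.66% in the same libraries. The marker shares of the groups overlapped, with 1.49% in control replicate 3 and 1.45% in deficient replicate 1. To compare the 10 genes with these markers inside each library, counts were divided by the summed counts of the 12 markers. Per 1000 marker counts, Nos2 had 317.6, 330.6 and 324.1 counts in the control replicates and 337.8, 331.3 and 333.2 in the deficient replicates. Its coefficient of variation over the 6 libraries was 2.18% on this scale and 9.96% in CPM, where counting alone gives 0.436%. Acod1 had 222, 225 and 223 counts against 227, 230.1 and 228 counts per 1000, with a coefficient of variation of 1.43% in place of 9.80%. Ptgs2 had 90.1, 93.4 and 90.4 counts against 94.0, 94.8 and 94.4 counts per 1000, with 2.23% in place of 10.1%. In these 3 genes the deficient libraries stayed above the controls on this scale, by factors of 1.031, 1.023 and 1.034 in the means, less than the differences in CPM. For Nos2, control replicate 2 (330.6) and deficient replicate 2 (331.3) lay closer than counting error, so its groups were barely apart. The share of all genes without overlap on this scale was not computed, so the separation in these 3 genes is no result about them.

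For the other genes the groups overlapped on this scale. Sod2 ran from 77.9 to 81.3, Slc7a2 from 32.8 to 34.6, Gch1 from 10.4 to 11.1 and Arg2 from 1.77 to 1.95 counts per 1000 marker counts over the 6 libraries. Slc7a11 measured 1.57, 1.71 and 1.51 counts in the control replicates, against 1.60, 1.55 and 1.52 counts in the deficient replicates, so its mean was the lower in the deficient group on this scale and the higher in CPM. Ass1 varied by 12.0% and Arg1 by 32.9%, beyond the 5.51% and 17.8% that counting alone gives, and these genes varied the most against the markers. When the whole fit was scaled to the 12 macrophage markers, no member passed an adjusted p of 0.1 (edgeR; 3 had an unadjusted p under 0.05), their median log2 fold change was 0.05, and that of Slc7a11 was −0.015 (adjusted p = 0.946). Under this scaling 0 of all 13961 genes passed an adjusted p of 0.1 (edgeR), so the loss by the adjusted p was not particular to the 10 genes. By an unadjusted p under 0.05 (edgeR), all genes went from 27.3% to 22.6% (3156 genes) and the 10 genes from 7 to 3. The cause of the larger fall among the 10 genes was not tested. The whole fit was also scaled to the crest and mesenchymal markers, of which 10 of 18 tested were called lower. All 10 genes were then called higher, as were 69.3% of all genes. The median of the 10 genes, 1.42 on the log2 scale, compares with 1.20 over all genes. Each scaling moves every gene by about the same amount. The median of all genes went from −0.02 to −0.18 and to 1.20. The sign of Slc7a11 and the calls under these scalings therefore say nothing about single genes. The parts of depth, of macrophage RNA and of crest RNA in the difference in CPM cannot be told apart, since the library totals and the summed CPM of both marker lists each separated the groups.

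**Figure D4:**
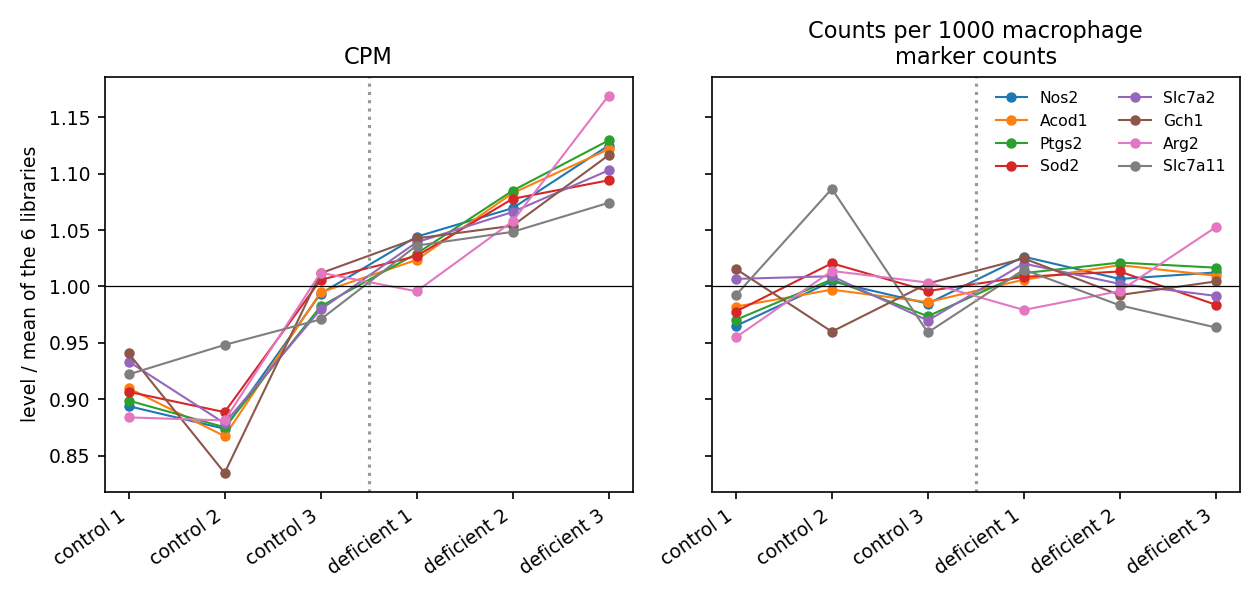
Level of 8 genes in each library divided by the mean of the 6 libraries, as CPM (left) and as counts per 1000 counts of the 12 macrophage markers (right), without Arg1 and Ass1. The dotted line parts the controls from the BAF155/170-deficient libraries. In CPM the lines run together from a low in control replicates 1 and 2 to deficient replicate 3, and on the marker scale they lie close to 1, as for Nos2 (318 to 338 counts per 1000).

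Across the 6 libraries the genes other than Arg1 and Ass1 varied together. Arg1 had correlations of 0.023 to 0.383 with the other members, and Ass1 had 0.624 to 0.845 with those other than Arg1. Over the 45 pairs, Pearson correlations of log2 CPM ran from 0.023 to 0.996 with a median of 0.927, and over the 28 pairs without Arg1 and Ass1 they ran from 0.821 to 0.996. The 6 points share their group, their depth and the macrophage share, so these values are a description. Of 11786 genes compared, those with a pattern most like that of Nos2 were Rgl1 (r = 0.9996), Pml, Cybb, C3 and Cd274, and 959 genes (8.14%) had r above 0.95. For Acod1 they were Mx1 (r = 0.9999), Clcn7, Gbp2, H2-K1 and Ube2l6, with 995 genes above 0.95. For Ptgs2 they were March5 (r = 0.9990), Serpina3g, Cd48, Tmem106a and Slamf8, with 926 genes above 0.95. A pattern shared with so many genes does not single out any of them. Arg1 differed in this respect, with 8 genes above 0.95, led by Mrps9 (r = 0.981), Klhdc4, Pcdh7, 2610002M06Rik and Pola2.

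The wider pathways around the 10 genes were read from lists of 205 genes, 182 of them tested. By edgeR none was called, and 85 had an unadjusted p under 0.05, beside 27.3% of all genes. With limma-voom none was called, and with DESeq2 1 was, Ddah2, lower (log2 fold change −0.87, adjusted p = 0.0256). With edgeR 25 passed an adjusted p of 0.1 with higher and 2 with lower expression in the deficient libraries, and the median log2 fold change was 0.17, beside 4.18% of all genes higher and 7.75% lower and a median of −0.02. Without overlap between groups, 77 were higher and 4 lower, beside 15.0% and 16.4% of all genes. The share of all genes that passed was 11.9% in the main fit and 7.75% with library totals. It was 0.00% without control replicate 1, 0.510% without control replicate 2 and 0.133% without deficient replicate 3. Without deficient replicate 2 it was 2.89%, and without control replicate 3 it was 26.0%. Beside these shares, the count of 27 fell to 4 with library totals and to 0 without control replicate 1 or 2 or deficient replicate 3. The count was 2 without deficient replicate 2, and it rose to 93 without control replicate 3. Scaled to the macrophage markers it was 0, with 14 at an unadjusted p under 0.05 (edgeR), beside 0.00% and 22.6% of all genes.

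The counts of genes that passed in each list below stand beside 4.18% of all genes higher and 7.75% lower. In the list of nitric oxide and tetrahydrobiopterin genes, 1 of 10 tested passed, Nosip, which binds nitric oxide synthase (log2 fold change 0.25, adjusted p = 0.0971, edgeR). Ddah1 and Ddah2, which break down methylated arginines that inhibit nitric oxide synthases, had the largest fitted differences of the list, in the other direction. Ddah2 had 14.2, 23.5 and 10.3 CPM in the controls against 10.5, 8.92 and 6.46 CPM, overlapping between control replicate 3 and deficient replicate 1 (log2 fold change −0.88, standard error 0.322, adjusted p = 0.138, edgeR). Over its alternatives the adjusted p ran from 5.04e-05 to 0.418. Ddah1 had 1.62 ± 0.910 and 0.786 ± 0.191 CPM (SD, n = 3 each; log2 fold change −1.00, adjusted p = 0.197, edgeR). The median of this list was −0.09, and the genes of tetrahydrobiopterin synthesis and recycling after Gch1 had few counts, with Pts at 8.31 ± 1.05 CPM, Spr at 10.4 ± 1.18 CPM and Qdpr at 20.4 ± 3.39 CPM in the controls (SD, n = 3 each). Of 19 tested genes of arginine, ornithine and polyamine metabolism, 2 passed with higher expression. They were Odc1, the first enzyme of polyamine synthesis (109 to 126 CPM, log2 fold change 0.20, adjusted p = 0.0785, edgeR), and Oaz1, the antizyme that restrains it (39.8 to 52.1 CPM, log2 fold change 0.39, adjusted p = 0.0933, edgeR). The list had a median of 0.03, with 11 positive and 8 negative values. The urea cycle genes Otc and Cps1 stood below 0.1 CPM.

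Of 26 tested genes around itaconate and the Krebs cycle, 2 passed, both lower. Idh2, mitochondrial isocitrate dehydrogenase, went from 28.0 ± 3.75 to 21.9 ± 0.980 CPM (SD, n = 3 each; log2 fold change −0.35, adjusted p = 0.089, edgeR). Acly, which makes cytosolic acetyl-CoA from citrate, went from 106 ± 4.89 to 92.0 ± 4.31 CPM (SD, n = 3 each; log2 fold change −0.21, adjusted p = 0.0892, edgeR). Sdha, Sdhb, Sdhc and Sdhd, the subunits of the enzyme that itaconate blocks, had log2 fold changes of 0.12, 0.13, 0.16 and 0.11, and none passed an adjusted p of 0.1. The median of the list was 0.08, lower than that of the 10 genes.

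Of 23 genes of cystine import, glutathione and the Nrf2 response, 2 passed with higher expression. Nfe2l2, which encodes Nrf2, had 184 ± 12.1 and 217 ± 5.27 CPM (SD, n = 3 each; log2 fold change 0.24, adjusted p = 0.0763, edgeR), and the sulfiredoxin Srxn1 had 65.8 ± 4.76 and 77.1 ± 2.84 CPM (SD, n = 3 each; log2 fold change 0.23, adjusted p = 0.0917, edgeR). Of the Nrf2 targets, Prdx1 (3557 to 4068 CPM, log2 fold change 0.19), Hmox1 (434 to 502 CPM, 0.21) and Txnrd1 (179 to 193 CPM, 0.11) had positive values that did not pass, and Nqo1 stood at 2.35 CPM in the controls with 0.00. The list had 18 positive and 5 negative log2 fold changes. Among the negative ones were Gclc (14.6 to 12.3 CPM, −0.255, adjusted p = 0.191, edgeR) and Slc7a5 (9.70 to 6.66 CPM, −0.54, adjusted p = 0.131, edgeR). In the superoxide list, 4 of 13 genes passed with higher expression. Among them were Cybb (1271 to 1486 CPM, log2 fold change 0.23), the catalytic subunit of the phagocyte NADPH oxidase that makes superoxide, Ncf4 (142 to 165 CPM, 0.21) and Rac2 (250 to 289 CPM, 0.21). In the prostanoid list, 1 of 15 passed, the prostaglandin D synthase Hpgds (54.1 to 63.0 CPM, log2 fold change 0.22). Ptges, the inducible prostaglandin E synthase, had 96.1 ± 8.90 and 108 ± 7.76 CPM (SD, n = 3 each).

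The genes of Toll-like receptor, NF-kB and interferon gamma sensing were the largest list. Of its log2 fold changes 40 of 41 were positive with a median of 0.19, which was also that of the macrophage markers. With the fit scaled to those markers the list median was 0.02, and 0 pathway genes passed, beside 0.00% of all genes. In the main fit 12 of 41 passed, all higher, beside 4.18% of all genes higher and 7.75% lower. The 12 include the receptors Tlr2 (61.9 to 74.4 CPM), Tlr8 (43.7 to 52.9 CPM) and Cd14 (300.5 to 350.5 CPM), the kinases Irak3, Irak4, Jak1 and Jak2, the NF-kB proteins Nfkb2 and Relb with the inhibitors Nfkbib and Nfkbie, and the transcription factor Irf1 (982 to 1136 CPM). Irak4 had the largest difference among them, from 18.0 to 24.8 CPM (log2 fold change 0.44, adjusted p = 0.0901, edgeR). Irf8, a factor of the macrophage lineage, had 1923 ± 146 and 2220 ± 64.2 CPM (SD, n = 3 each; adjusted p = 0.108, edgeR). Per kilobase of exon Irf8 had 273 CPM in the controls, below the NF-kB inhibitor Nfkbia with 368 CPM.

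The 22 classical activation products all had positive log2 fold changes, with a median of 0.19, and 1 passed, the chemokine Ccl4 (277 to 318 CPM, adjusted p = 0.0924, edgeR). By CPM the highest in the controls were the interleukin 1 receptor antagonist Il1rn at 7078 ± 476 CPM, the interferon-induced chemokine Cxcl9 at 3323 ± 274 CPM and the chemokine Ccl5 at 3240 ± 275 CPM (SD, n = 3 each). Per kilobase of exon these 3 had 1279, 1102 and 3375 CPM, near or above Acod1 at 1121 CPM. Of 14 tested alternative activation products, Folr2 (252 to 292 CPM) and Il10 (65.4 to 75.8 CPM) passed with higher expression, and the median was 0.20. The levels of this list were spread widely. In the controls Retnla stood at 0.0274 CPM, Cd163 at 0.378 CPM and Chil3 at 4.69 CPM, whereas Il4ra, the receptor of interleukin 4, stood at 967 CPM, Tgm2 at 421 CPM, Clec7a at 175.5 CPM and Mrc1 at 104 CPM. The medians of the classical and the alternative lists were close, and the difference between them was not tested.

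Genes induced by tissue dissociation and sorting were read beside these lists. Of 11 tested immediate early and heat shock genes, 5 passed with higher expression (Junb, Atf3, Zfp36, Hspa1a and Hspa1b), beside 4.18% of all genes. Egr1 was called lower, beside 4.88% of all genes. The count for this list with a library left out is not reported here. The share of all genes that passed then ran from 0.00% to 26.0%. The 12 genes summed to between 1727 and 1956 CPM in the controls and between 2025 and 2216 CPM in the deficient libraries. Their part in the levels of the 10 genes was not tested.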

How the data were processed

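RNAseq of GFP+ NCCs from 3 control and 3 BAF155/170-deficient samples was analysed. Per the methods, the authors trimmed reads of strand-specific poly(A) libraries, used STAR for alignment to GRCm38 and featureCounts for counting; the deposited values are whole-number counts per gene, not normalized. The submitters' processing notes also name FastQC 0.11.7 and cutadapt 1.18. The annotation release, the strand setting and the treatment of reads mapping to several places were not given in the sources used here. Reads of homologous genes may therefore have been lost or shared.

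Identifiers were matched without version to GENCODE mouse release 21 (46488 of 46983 genes; the rest held at most 0.0706% of a library's counts). The filter filterByExpr of edgeR 4.0.16 (R 4.3.3), with minima of 10 counts per library and 15 in total, left 13961 genes. TMM factors were computed and the robust quasi-likelihood test was run on the 2 groups without covariates; p-values were Benjamini-Hochberg adjusted over all genes tested. The call thresholds follow the study's methods, in which limma was used. Log2 CPM used a prior count of 2. The common biological coefficient of variation was 12.8%, and the procedure was tested on simulated data. Total counts of 8191219 to 19808620 per library limit the precision of Arg1 most. Alternatives were DESeq2 1.42.0, limma-voom (limma 3.58.1), other scalings and filters, a replicate block and leaving out each library.

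The 10 genes and all lists were chosen with earlier results of these data known. Named were the 10 genes, the BAF genes, list genes that passed a threshold, up to 3 of the most abundant per list and, for Nos2, Acod1, Arg1 and Ptgs2, the 5 genes of most like pattern; other list genes, such as Nos1, Asl, Slc7a1, Ptgs1, Ddah2, Nqo1, Retnla, Sdha and Pts, were named for their role or value after their values were seen. Promoters came from RefSeq (GRCm38.p6), and 10 motifs were searched. Some genes of the lists that passed a threshold are not reported here by name.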

Additional observations from a re-analysis of the deposited data

How the results depend on the processing

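The log2 fold changes of all 10 genes were positive in the main analysis and in 13 of 14 alternatives, and 9 of 10 were in the remaining one. Scaled to the 12 macrophage markers, Slc7a11 turned to −0.015, the median of the 10 genes was 0.05, and 0 of the 10 genes and 0 of the pathway genes passed an adjusted p of 0.1 (edgeR; 3 and 14 had an unadjusted p under 0.05). Under this scaling 0 of all 13961 genes passed, while 3156 had an unadjusted p under 0.05. Scaled to the crest and mesenchymal markers, which were themselves lower in the deficient libraries, 10 of 10 genes were called and 10 passed the adjusted p, as did 177 pathway genes and 74.9% of all genes. This scaling moved the median of all genes to 1.20 and that to macrophage markers to −0.18.

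The number of the 10 genes with an adjusted p of at most 0.1 was 2 in the main analysis, 6 with DESeq2 and 5 with limma-voom. It was 0 with library totals in place of TMM, 7 without a filter on low counts and 1 with a filter of 2 CPM in 3 libraries. In the same order, the shares of all genes that passed were 11.9%, 14.8%, 13.6%, 7.75%, 9.52% and 8.13%. Leaving out each library gave 0 to 7, beside 0.00% to 26.0% of all genes. The number of pathway genes was 27 in the main analysis, 53 with DESeq2, 4 with library totals, 74 without a filter and 12 with the filter of 2 CPM. Leaving out each library gave 0 to 93 pathway genes. These counts stand beside the same shares of all genes. The count of the 10 genes was 0 without control replicate 1 or 2 or deficient replicate 2 or 3. Without control replicate 1 no gene of the whole table passed an adjusted p of 0.1 (edgeR), while 2547 had an unadjusted p under 0.05. The cause of these differences was not tested. Medians of the pathway lists moved in 33 of 126 cases.

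With the replicate number as a replicate block, 7 of the 10 genes and 83 pathway genes passed, as did 26.2% of all genes, against 11.9% without the block. Correlations of the deviations of same-numbered samples were 0.028, −0.034 and 0.29. Those of samples with different numbers ran from −0.295 to 0.261. In the submitters' own sample names the controls carry the same numbers as these replicates, but the deficient samples carry other numbers. The block therefore joins samples whose names have unlike numbers. The few correlations do not show that the replicate numbers pair the samples, and they cannot exclude it. Depth limits Arg1, with 16 to 60 counts per library. Levels below about 1 CPM rest on few counts.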
